A study of Homo sapiens with 12 samples.

Results

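The DNA replication genes described here are 56 named genes whose products copy the genome in S phase, out of 56832 genes counted. The members were given as a list of names: the MCM helicase ring and the factors that load and start it, the sliding clamp and its loader, the polymerases, the enzymes that finish the strands, the suppliers of nucleotides, chromatin factors that act behind the fork, regulators of S phase entry, and factors that protect or repair forks. Each of the 56 was found by its symbol, and each passed the filter on low counts that left 14549 genes for testing. Gene length, overlaps and promoter sequence, which did not enter the choice, are given further on.

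A replication origin is prepared in G1 phase, when ORC, CDC6 and CDT1 place the MCM ring on DNA, and it fires in S phase, when CDC45 and GINS join the ring to make the working helicase. The clamp PCNA, opened and closed around DNA by the RFC loader, then holds the polymerases on the template while ribonucleotide reductase, thymidylate synthase and thymidine kinase supply the building blocks. Most of these genes are switched on together at S phase entry by E2F transcription factors, so their summed RNA is widely read as a sign of proliferation in breast tumours.

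The cells were MDA-MB-468, an established human line from a basal-like breast tumour, known as negative for estrogen receptor, progesterone receptor and HER2. The line stably carried either pCDH-TRB, a lentiviral vector for thyroid hormone receptor beta (TRB cells), or pCDH-EV, the empty vector (EV cells). Both were starved of hormone for 24 hours in medium with charcoal-stripped serum and then held for 24 hours with the thyroid hormone T3 at 10 nM or with its vehicle, NaOH. Each of the 4 combinations had 3 RNA sequencing libraries, 12 in all. The labels name 1 stable line for each vector, so a difference between TRB and EV cells is one between those lines. Whether a group's libraries came from separate dishes is not in the labels, so the p-values reflect spread among libraries that may be no more than technical.

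Gene totals ranged from 4241863 to 11955825 counts, and the shallowest T3 library exceeded the deepest vehicle library. MT-RNR1 and MT-RNR2, the mitochondrial ribosomal RNAs, held 0.326% to 2.68% of the counts in vehicle libraries and 0.0502% to 0.09% in T3 libraries. THRB, the receptor gene, stood at 43.4 ± 0.824 CPM (counts of a gene relative to the library total, scaled by TMM factors; mean ± SD, n = 3 here and below) in EV vehicle, 38.5 ± 1.23 in EV T3, 140.2 ± 4.15 in TRB vehicle and 329 ± 16.7 in TRB T3 libraries. KLF9, a direct T3 target, stood at 2.95 ± 0.714, 13 ± 2.1, 2.44 ± 0.502 and 27.1 ± 0.382 CPM in the same order.

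The replication genes were measured well above the detection limit. Per kilobase of exon, PCNA was the most abundant member in EV vehicle libraries at 222 ± 10.1 CPM per kb, followed by TYMS at 149.7 ± 1.54 CPM per kb and MCM3 at 81 ± 1.82 CPM per kb. TK1 and MCM7, next in order at 72.7 ± 3.07 and 71.3 ± 1.15 CPM per kb, did not differ beyond their SD. At the other end stood BLM, a repair helicase, at 5.53 ± 0.0712 CPM per kb, and POLE2, the second subunit of polymerase epsilon, at 4.72 ± 0.896 CPM per kb. The MCM proteins form a ring with 1 copy of each, and the levels of their RNAs per kilobase ranged from 31.3 ± 0.387 CPM per kb for MCM2 to that of MCM3. Levels per kilobase depend on the exon lengths used, so this range is no measure of an imbalance within the ring. Lowest raw counts in any library ran from 36 for POLE2 to 1394 for PCNA, so a difference of a given size is measured more precisely in PCNA than in POLE2. Whether counting used strand is unknown, and other annotated genes share exon bases with several members: 47.6% of CCNE2, 32% of MCM2, 27.9% of RRM2, 23.6% of GINS4, 17.2% of DUT and 12.1% of POLD1, besides those named below.

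Most of the 56 listed genes were lower with T3 than with vehicle in TRB cells. In TRB cells 34 of 56 members fell with T3 and 3 rose at an adjusted p below 0.05 over all genes tested (edgeR quasi-likelihood test). Of all genes tested 21.9% fell and 22.4% rose in that comparison, and of those with a mean of 10 CPM or more 26.1% fell and 25.3% rose. The members' median log2 fold change was -0.185, against -0.002 over all genes tested. None of the 34 falls reached 1.5-fold, and 2 of the 3 rises did. In 33 members all 3 TRB T3 libraries lay below all 3 TRB vehicle libraries, in 3 they lay above, and in 20 the groups overlapped. Over all genes tested 25.8% lay wholly below and 26.1% wholly above. The T3 libraries were also the deeper ones, so T3 and depth cannot be told apart by grouping. With all libraries thinned to the smallest total, 23 members were called lower and 3 higher, where 13.7% of all genes tested were lower and 14.3% higher. The 11 whose fall was not called then were MCM2, MCM7, ORC1, MCM10, CDC45, GINS2, RFC4, RFC5, POLD1, DUT and CCNE1. In bulk RNA, fewer cells in S phase and less replication RNA per cell cannot be told apart.

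Cell type markers moved in the same comparison. All 10 basal and epithelial markers were detected. With T3 in TRB cells 6 of them fell and 1 rose, 5 of the falls by more than 1.5-fold. Of all 14549 genes tested 3192 fell and 3264 rose, with 800 falls and 1129 rises of 1.5-fold or more. The log2 fold changes were -2.01 for KRT5, -2.07 for KRT6A, -1.92 for KRT6B, -1.61 for KRT17 and -1.31 for KRT14, the basal keratins, and -0.19 for EPCAM, against 0.34 for CDH1, while EGFR, KRT8 and KRT18 did not pass the test. Their sum was 8618 to 8817 CPM in TRB vehicle, 7280 to 7720.0 CPM in TRB T3, 10280 to 10680 CPM in EV vehicle and 9862 to 10290 CPM in EV T3 libraries. Of the receptor genes PGR was at 0, but ESR1 was detected at 5.22 to 10.8 CPM and ERBB2 at 77.7 to 142 CPM, and both rose with T3 in TRB cells (log2 0.55 and 0.47).

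Markers of other cell types were low apart from CD14 and COL1A1. The 6 leukocyte markers summed to 17.6 to 21.7 CPM in TRB vehicle, 182 to 194.1 CPM in TRB T3, 28.1 to 32.7 CPM in EV vehicle and 49.8 to 53 CPM in EV T3 libraries, nearly all of it CD14 (log2 fold change with T3 in TRB cells 3.25), with LYZ at 0 and PTPRC at 0.498 CPM or less. The 6 fibroblast markers summed to 16.6 to 17.9 CPM and 19.7 to 21.4 CPM in TRB vehicle and TRB T3 libraries, and to 15.8 to 16.4 CPM and 14.6 to 15.5 CPM in EV vehicle and EV T3 libraries. COL1A1 made up most of this and rose with T3 in TRB cells (log2 0.26, edgeR adjusted p = 0.0195), while COL1A2, DCN and LUM were at 0. The 5 endothelial markers summed to at most 6.82 CPM in any library, and of them CDH5 (log2 3.09) and PECAM1 (0.91) rose and KDR (-2.70) fell with T3 in TRB cells. The part that these markers, the depth or the mitochondrial RNA had in the replication genes' values was not tested.

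**Figure D1:**
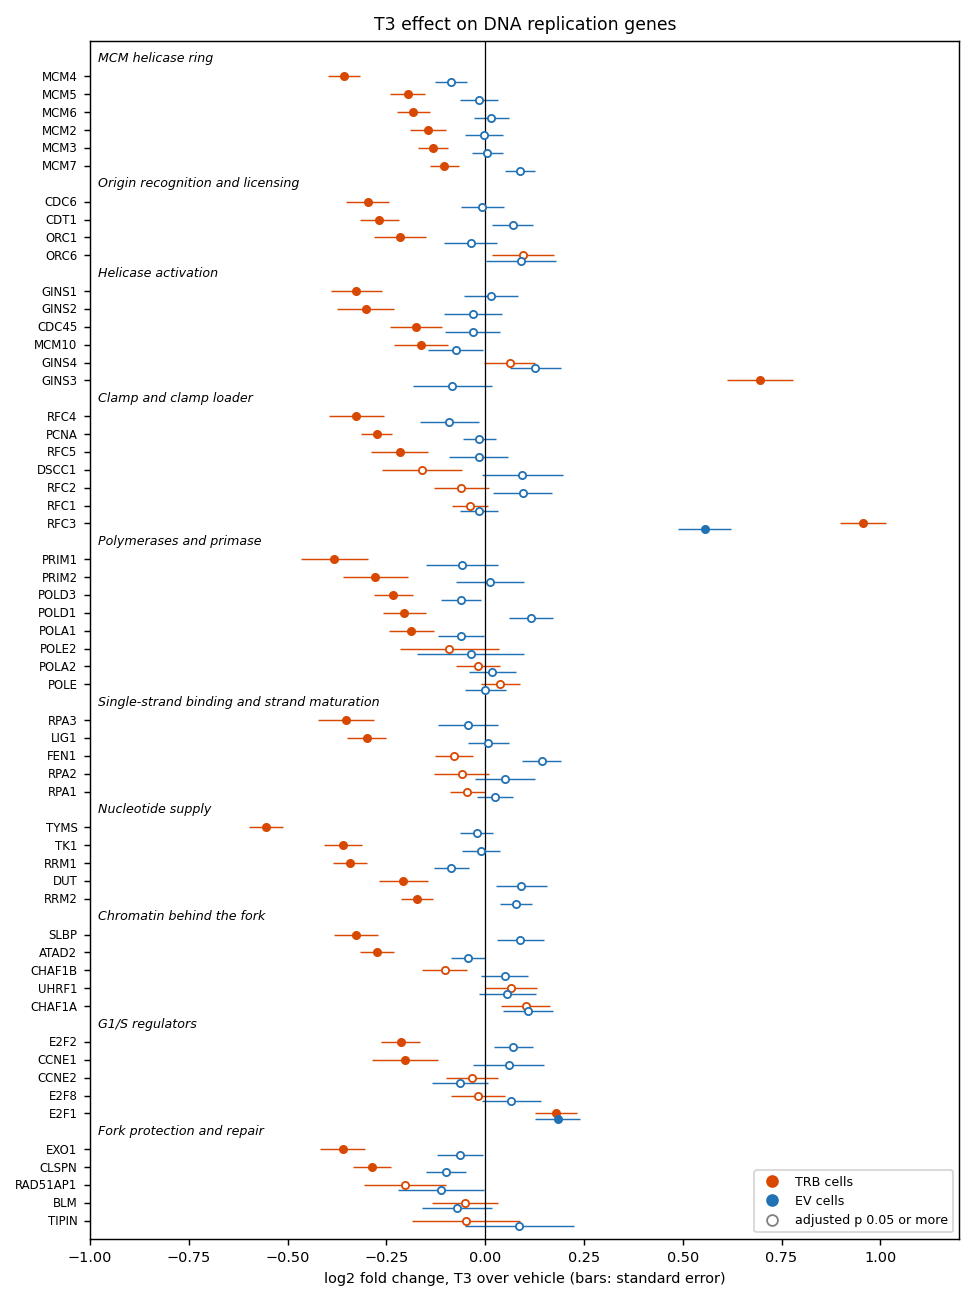
Log2 fold change (T3 minus vehicle, error bars SE) of each of the 56 replication genes in TRB cells and in EV cells, grouped by the role of the gene product, with filled points where the edgeR adjusted p was below 0.05. In TRB cells most points sit below 0, with TYMS lowest and RFC3 and GINS3 highest, while in EV cells most sit near 0 and RFC3 alone stands clear of the rest.

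Summed over the 56 genes, the level was 5205, 5176 and 5051 CPM in TRB vehicle libraries and 4644, 4580 and 4453 CPM in TRB T3 libraries. The groups did not overlap, and the mean sum with T3 was 88.6% of that with vehicle. In EV cells the sum was 4988, 4979 and 5019 CPM with vehicle against 4975, 5081 and 5095 CPM with T3, which overlap, and the mean with T3 was 101.1% of that with vehicle. By role, the sum in TRB T3 libraries was lowest relative to TRB vehicle libraries for nucleotide supply at 78.8%, then for fork protection at 83.6%, licensing at 85.7% and the MCM ring at 88%. It was highest for the G1/S regulators at 95.8%, the clamp and its loader at 95.2% and helicase activation at 94.4%, the 3 roles that hold the genes that rose.

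The MCM ring is the motor of the replicative helicase, and all 6 of its genes fell with T3 in TRB cells. At equal depth 4 of the 6 were called, and MCM2 and MCM7 had edgeR adjusted p of 0.125 and 0.174. Compared with EV T3 libraries, 2 of the 6 were lower in TRB T3 libraries, MCM4 and MCM7, where 19.7% of all genes tested were lower. The ring's median log2 difference there was -0.058. The ring's summed level was 1246 ± 19.2 CPM in TRB vehicle and 1097 ± 27.7 CPM in TRB T3 libraries. In EV cells it was 1166 ± 2.94 CPM with vehicle and 1170 ± 15.2 CPM with T3. MCM4 (chromosome 8, 47960185 to 47978160) fell furthest. It stood at 241, 244 and 238 CPM in TRB vehicle and 194, 195 and 176 CPM in TRB T3 libraries. All TRB T3 libraries lay below all others, and the log2 fold change was -0.36 ± 0.04 (SE), with an edgeR adjusted p of 6.62e-12. In EV cells MCM4 was at 229.6, 223 and 225 CPM with vehicle against 211, 215 and 212 CPM with T3. These did not overlap, but the change of -0.09 ± 0.04 did not pass the test (edgeR adjusted p = 0.277).

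Of the other ring genes, MCM5 (-0.20), MCM6 (-0.18), MCM3 (-0.13) and MCM2 (-0.14) fell by smaller amounts on the log2 scale. MCM2 (chromosome 3, 127598223 to 127622436) had 120.1, 117 and 124 CPM in TRB vehicle and 107, 111 and 109 CPM in TRB T3 libraries, against 115, 112 and 113 CPM with vehicle and 110.0, 116 and 112 CPM with T3 in EV cells. The TRB groups did not overlap, while the EV groups did. MCM7 (chromosome 7, 100092728 to 100101940), which also hosts a microRNA cluster in an intron, had the smallest fall, from 262, 259 and 254 to 240.0, 241 and 239 CPM, a log2 fold change of -0.10 ± 0.04 (edgeR adjusted p = 0.0172). That call was lost without TRB vehicle replicate 1 (adjusted p = 0.0787) or replicate 2 (0.0576). In EV cells the MCM7 libraries with T3 lay above those with vehicle, at 275, 277 and 278 against 258, 265 and 258 CPM, without passing the test.

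Licensing factors load the ring onto origins. CDC6, CDT1 and ORC1 fell with T3 in TRB cells and ORC6 did not pass the test. CDC6 (chromosome 17, 40287633 to 40304657), an ATPase of the loading reaction, went from 78.9, 80.3 and 78.4 to 68.8, 59 and 65.4 CPM, and its EV libraries stood at 88.6, 78.7 and 84.5 CPM with vehicle against 82, 82.9 and 84.3 CPM with T3. The 3 TRB T3 libraries were below the other 9, and the change was -0.30 ± 0.06 on the log2 scale (edgeR adjusted p = 4.92e-06). CDT1, its partner in loading, fell by 0.27 and ORC1, the largest subunit of the origin recognition complex, by 0.22 on the log2 scale. The ORC1 call was lost without TRB vehicle replicate 3 (edgeR adjusted p = 0.0772). ORC6, the smallest subunit of that complex, was at 30.1 ± 2.08 CPM with vehicle against 32.1 ± 2.03 CPM with T3.

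CDC45, GINS and MCM10 turn the loaded ring into an active helicase, and here the members split. MCM10, CDC45, GINS1 and GINS2 fell, GINS4 did not pass the test, and GINS3 rose. GINS is a complex with 1 copy of each of its 4 subunits. GINS3 (chromosome 16, 58295080 to 58406144) stood at 20.9, 20.1 and 19.4 CPM in TRB vehicle and 34.3, 33.3 and 30.2 CPM in TRB T3 libraries, and at 20.9, 18 and 19.6 CPM in EV vehicle and 17.7, 17.8 and 19.2 CPM in EV T3 libraries. Every TRB T3 library was above every other library. The fold change was 1.62 (log2 0.70 ± 0.08, edgeR adjusted p = 6.87e-11), against a log2 value of -0.08 ± 0.10 in EV cells (adjusted p = 0.75).

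GINS1 (chromosome 20, 25407727 to 25452628) moved the other way, from 53.5, 57.7 and 61.1 to 47.2, 43.5 and 46.6 CPM in TRB cells, a log2 fold change of -0.33 ± 0.06 (edgeR adjusted p = 1.56e-05). GINS2 (chromosome 16, 85676198 to 85690073) went from 42.7, 38.3 and 36.9 to 30.6, 32.9 and 32.1 CPM, a log2 fold change of -0.30 ± 0.07 (edgeR adjusted p = 0.000326). For both genes the TRB groups did not overlap. The fall of GINS2 was not called at equal depth (log2 -0.25, adjusted p = 0.142). GINS4 was at 47.5 ± 3.62 CPM with vehicle against 49.6 ± 3.2 CPM with T3. Per kilobase, the level of GINS3 over the mean of the other GINS genes was 0.648, 0.615 and 0.581 in TRB vehicle and 1.25, 1.18 and 1.07 in TRB T3 libraries. It was 0.649, 0.556 and 0.623 in EV vehicle and 0.554, 0.548 and 0.579 in EV T3 libraries. The TRB T3 libraries lay above all others. Whether the ratio is above 1 depends on the exon lengths used, so only its change between groups is read. An antisense gene covers 16.5% of the exon bases of GINS3, and without strand information its reads cannot be told apart from those of GINS3. MCM10 (log2 -0.16 ± 0.07, edgeR adjusted p = 0.049) and CDC45 (log2 -0.18 ± 0.07, adjusted p = 0.0233) fell by less. The MCM10 call was lost without any 1 of the TRB vehicle libraries, TRB T3 replicate 1 or TRB T3 replicate 2, with adjusted p of 0.0892 to 0.171. It was also lost with DESeq2 (adjusted p = 0.126). Other edgeR settings that ended it were no filter (0.103), the compared groups alone (0.0519) and a replicate block (0.0513). The same held for protein-coding genes only (0.0697) and GC offsets (0.0994). The CDC45 call was lost without TRB vehicle replicate 1 (0.0669), TRB vehicle replicate 2 (0.116) or TRB T3 replicate 2 (0.0905). DESeq2 (adjusted p = 0.0746) and edgeR without a filter (0.0607) did not call CDC45 either.

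**Figure D2:**
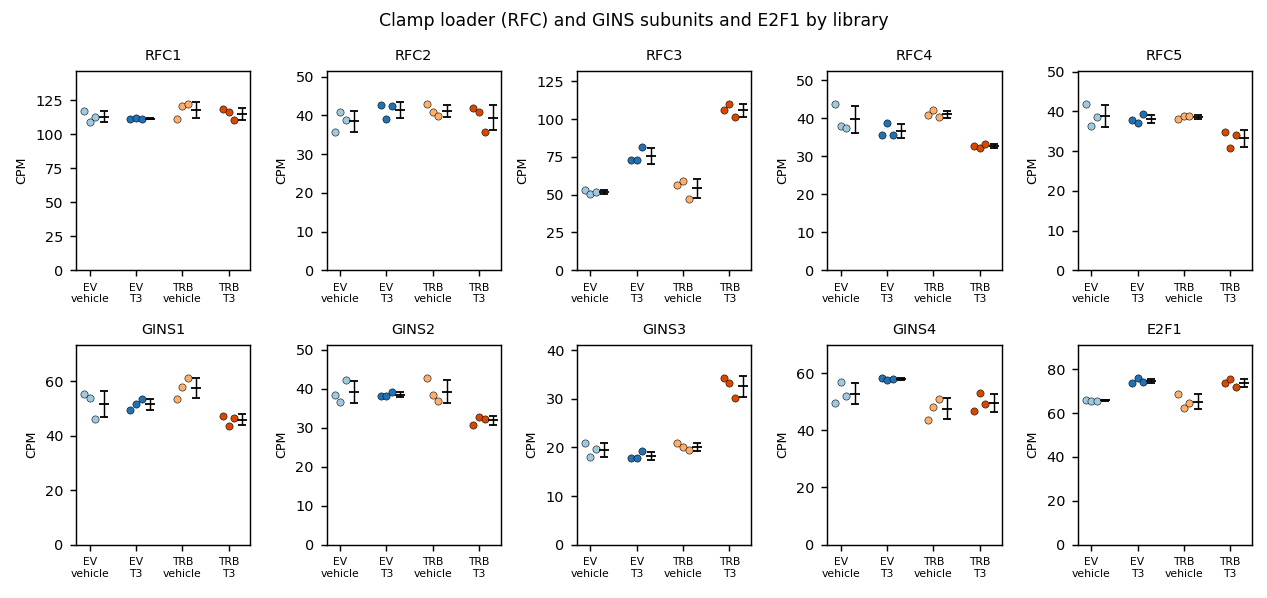
TMM-scaled CPM (vertical axis, from 0) of the 5 RFC genes, the 4 GINS genes and E2F1 in each of the 12 libraries, by group, with the mean and SD of 3 libraries beside the points. RFC3 is highest in TRB T3 and next highest in EV T3 libraries, GINS3 is high in TRB T3 libraries alone, and RFC4, RFC5, GINS1 and GINS2 have their lowest means in TRB T3 libraries.

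The sliding clamp and its loader split as well. PCNA, RFC4 and RFC5 fell with T3 in TRB cells, RFC1, RFC2 and DSCC1 did not pass the test, and RFC3 rose. PCNA (chromosome 20, 5114953 to 5126626), the clamp, stood at 369, 379.8 and 355 CPM in TRB vehicle and 316, 311 and 286 CPM in TRB T3 libraries, with 336, 309.7 and 336 CPM in EV vehicle and 316, 324 and 329 CPM in EV T3 libraries. The TRB groups did not overlap (log2 fold change -0.28 ± 0.04, edgeR adjusted p = 2.03e-08), and the lowest vehicle value of the TRB cells was above every EV library.

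RFC3 (chromosome 13, 33818049 to 33966558), a small subunit of the clamp loader, had the largest rise of the 56 genes. Its vehicle libraries stood at 56.1, 59.4 and 47.3 CPM in TRB and 52.9, 50.5 and 51.9 CPM in EV cells. Its T3 libraries stood at 106, 110.1 and 101 CPM in TRB and 72.7, 72.8 and 81.8 CPM in EV cells. The 4 groups fell into 3 levels: both vehicle groups together, EV T3 above them and TRB T3 above all. T3 raised RFC3 by 1.94-fold in TRB cells (log2 0.96 ± 0.06, edgeR adjusted p = 3.4e-22) and by 1.47-fold in EV cells (log2 0.56 ± 0.07, adjusted p = 4.56e-09), and the log2 effect in TRB cells was larger by 0.40 ± 0.09 (adjusted p = 0.00034). With every library thinned to the smallest total, that last adjusted p was 0.14.

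The other loader genes did not follow RFC3. RFC4 (chromosome 3, 186789880 to 186807058) went from 40.8, 42.1 and 40.3 to 32.8, 32.2 and 33.3 CPM in TRB cells, a log2 fold change of -0.33 ± 0.07 (edgeR adjusted p = 7.66e-05), and RFC5 (chromosome 12, 118013588 to 118033130) from 38, 38.9 and 38.9 to 34.7, 30.8 and 34 CPM, a log2 fold change of -0.22 ± 0.07 (adjusted p = 0.00899, or 0.0759 without TRB T3 replicate 2). Neither overlapped between the TRB groups. At equal depth neither fall was called (adjusted p = 0.0839 and 0.368). RFC1, the large subunit, was at 118 ± 5.97 CPM with vehicle against 115 ± 4.33 CPM with T3, and RFC2 at 41.2 ± 1.65 and 39.5 ± 3.3 CPM. DSCC1, which belongs to an alternative loader, was at 18.6 ± 1.93 and 16.7 ± 2.52 CPM. The loader holds 1 copy of each RFC subunit. Per kilobase, the level of RFC3 over the mean of RFC2, RFC4 and RFC5 was 0.894, 0.946 and 0.773 in TRB vehicle, 1.89, 2.05 and 1.92 in TRB T3, 0.853, 0.851 and 0.884 in EV vehicle and 1.22, 1.23 and 1.36 in EV T3 libraries. All 6 vehicle libraries had a lower ratio than all 6 T3 libraries. Whether the ratio is above 1 depends on the exon lengths used, so only its change between groups is read. No annotated gene shared exon bases with the coding transcripts of RFC3, and exons of its other transcripts were not checked.

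Of the 8 polymerase and primase genes 5 fell with T3 in TRB cells: POLA1 and both primase genes, which together with POLA2 begin each new strand, and the polymerase delta genes POLD1 and POLD3, which extend the lagging strand. PRIM1 (chromosome 12, 56731596 to 56752373), the catalytic primase subunit, went from 24.7, 25.8 and 26.1 to 19.5, 19.4 and 19.8 CPM. POLD3 (chromosome 11, 74493851 to 74669117) went from 96.5, 102 and 97.7 to 86.3, 83.6 and 81.9 CPM. In both genes every TRB T3 library lay below every TRB vehicle library, with log2 fold changes of -0.38 ± 0.08 (edgeR adjusted p = 0.000123) and -0.23 ± 0.05 (adjusted p = 5.01e-05). PRIM2 (-0.28), POLD1 (-0.20) and POLA1 (-0.19) fell on the same log2 scale, POLA1 with an adjusted p of 0.00528, or 0.0617 without TRB vehicle replicate 1.

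The leading-strand polymerase did not share these falls. POLE (chromosome 12, 132623753 to 132687365), the catalytic subunit of polymerase epsilon, stood at 127, 123 and 129.9 CPM in TRB vehicle and 130.1, 127 and 132 CPM in TRB T3 libraries, with 113, 125 and 135 CPM with vehicle and 136, 124 and 118 CPM with T3 in EV cells. All 4 groups overlapped, and the log2 fold change in TRB cells was 0.04 ± 0.05 (edgeR adjusted p = 0.563). POLE2 was at 10.9 ± 0.425 and 10.3 ± 1.14 CPM and POLA2 at 66.7 ± 3.31 and 65.9 ± 1.63 CPM with vehicle and T3. POLE2 had the fewest counts of the members, and its SE of 0.13 on the log2 scale is too wide to show a change of the size seen in POLD3. Overlapping annotated genes share 53.7% of the exon bases of POLA2 and 34.8% of those of PRIM1, where counting could have dropped or split reads.

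RPA covers single-stranded DNA, FEN1 trims Okazaki fragments and LIG1 seals them. LIG1 and RPA3 fell with T3 in TRB cells, and RPA1, RPA2 and FEN1 did not pass the test. LIG1 (chromosome 19, 48115445 to 48170603) went from 91.3, 93 and 95.6 to 78.5, 75.6 and 73.2 CPM, against 91.4, 91.9 and 94.4 CPM with vehicle and 90.8, 95.9 and 93.1 CPM with T3 in EV cells. RPA3 (chromosome 7, 7636518 to 7718607) went from 37.2, 42.3 and 37.3 to 30.5, 30.2 and 31.2 CPM. In EV cells RPA3 was at 36.3, 36 and 36.2 CPM with vehicle and 33.1, 35.9 and 36.1 CPM with T3. Both had TRB T3 libraries below all others, with log2 fold changes of -0.30 ± 0.05 (edgeR adjusted p = 5.54e-07) and -0.35 ± 0.07 (adjusted p = 3.1e-05). RPA is a complex of RPA1, RPA2 and RPA3, and RPA1 stood at 139.5 ± 3.55 and 135 ± 2.9 CPM and RPA2 at 37.8 ± 0.493 and 36.2 ± 2.79 CPM in TRB vehicle and TRB T3 libraries. FEN1 was at 116 ± 3.85 and 109.9 ± 1.03 CPM in the same libraries, which did not overlap (log2 -0.08 ± 0.05, adjusted p = 0.171).

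All 5 nucleotide supply genes fell with T3 in TRB cells, with a median log2 fold change of -0.34, and 4 of them, all but DUT, were also called lower at equal depth. TYMS (chromosome 18, 657604 to 673578), which makes thymidylate and is the target of fluorouracil, had the largest fall of the 56. It stood at 254, 238 and 235 CPM in TRB vehicle and 170.3, 165 and 158 CPM in TRB T3 libraries, with 246, 248 and 252 CPM in EV vehicle and 231, 251 and 253 CPM in EV T3 libraries. The 3 TRB T3 libraries lay below the other 9, which overlapped. The level was 1.47-fold lower with T3 (log2 -0.56 ± 0.04, edgeR adjusted p = 4.85e-19). ENOSF1, which runs on the opposite strand and shares exon bases with TYMS, was at 93.7 ± 3.64 and 103.7 ± 10.4 CPM in the TRB groups. ENOSF1 and TYMSOS overlap 64.6% of the exon bases of TYMS, and their reads cannot be told apart there without strand.

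TK1 (chromosome 17, 78174075 to 78187233), the salvage kinase for thymidine, went from 131, 128 and 117 to 102, 97.8 and 93.3 CPM in TRB cells and was at 119.6, 129.9 and 127 CPM with vehicle and 124, 124 and 126 CPM with T3 in EV cells. RRM1 (chromosome 11, 4094707 to 4138876), the large subunit of ribonucleotide reductase, went from 181, 174 and 170.0 to 144, 136 and 134 CPM, and RRM2 (chromosome 2, 10120698 to 10131419), its S phase subunit, from 216, 229.8 and 217 to 196, 197 and 196 CPM. TRB T3 libraries were below all TRB vehicle libraries in these genes, with log2 fold changes of -0.36 ± 0.05, -0.34 ± 0.04 and -0.17 ± 0.04 and edgeR adjusted p of 1.49e-09, 2.78e-10 and 0.000234. RRM2 in EV cells was at 208, 218 and 208 CPM with vehicle against 213, 229 and 227 CPM with T3, which overlap. DUT, which keeps uracil out of DNA, went from 60.3 ± 5.91 to 52.3 ± 1.49 CPM (log2 -0.21 ± 0.06, adjusted p = 0.00389), with overlapping groups, and its adjusted p was 0.0676 without TRB vehicle replicate 1. At equal depth its log2 fold change was -0.05 (adjusted p = 0.756).

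**Figure D3:**
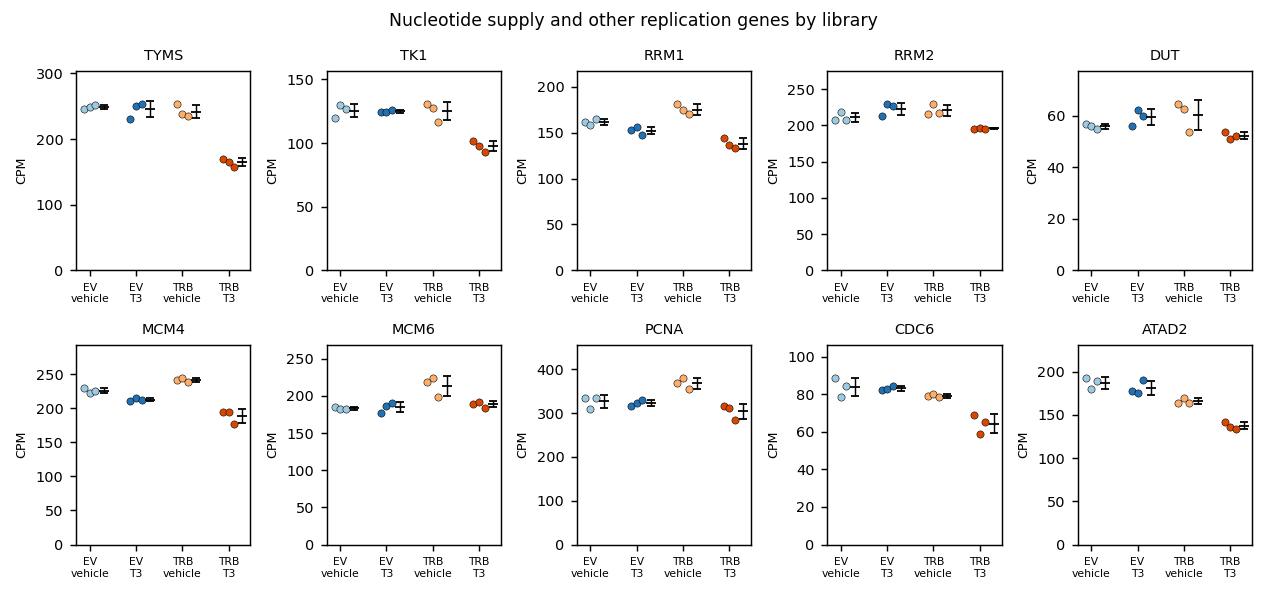
TMM-scaled CPM (vertical axis, from 0) of the 5 nucleotide supply genes and of MCM4, MCM6, PCNA, CDC6 and ATAD2 in each of the 12 libraries, by group, with the mean and SD of 3 libraries beside the points. TYMS, TK1, MCM4, CDC6 and ATAD2 are lowest in the TRB T3 libraries, and MCM6 and PCNA are highest in the TRB vehicle libraries.

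The helicase, loader, polymerase and nucleotide supply genes were also set against each other within each library. The summed CPM of the nucleotide supply genes over that of the MCM ring was 0.675, 0.661 and 0.647 in TRB vehicle and 0.599, 0.581 and 0.594 in TRB T3 libraries, and 0.677, 0.696 and 0.693 in EV vehicle and 0.675, 0.7 and 0.689 in EV T3 libraries. The TRB T3 libraries lay below all others. This sum includes TYMS, which had the largest fall of all members, and it was not also taken without TYMS. For the polymerases and primase the same ratio was 0.408, 0.394 and 0.41 in TRB vehicle and 0.414, 0.411 and 0.435 in TRB T3 libraries, all 3 of the latter higher by a small margin. In EV cells it was 0.409, 0.413 and 0.437 with vehicle against 0.428, 0.418 and 0.412 with T3, a range that overlaps that of the TRB T3 libraries. For the 5 RFC genes the ratio was 0.231, 0.24 and 0.236 in TRB vehicle and 0.301, 0.296 and 0.296 in TRB T3 libraries, then 0.249, 0.236 and 0.24 in EV vehicle and 0.261, 0.255 and 0.263 in EV T3 libraries. It was higher with T3 in both cells, without overlap. Without RFC3 in the sum it was 0.186, 0.193 and 0.197 in TRB vehicle, 0.206, 0.197 and 0.2 in TRB T3, 0.204, 0.193 and 0.196 in EV vehicle and 0.197, 0.193 and 0.194 in EV T3 libraries, and the groups met or overlapped. Since the genes were listed with results known, these ratios are a description and were given no test.

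Behind the fork, the CAF-1 subunits CHAF1A and CHAF1B deposit histones, UHRF1 keeps up DNA methylation, SLBP binds histone messenger RNA and ATAD2 is a bromodomain ATPase. SLBP and ATAD2 fell with T3 in TRB cells and the other 3 did not pass the test. SLBP (chromosome 4, 1692800 to 1712555) went from 83.7, 79.2 and 69.4 to 65.1, 59.5 and 60.9 CPM, with 69.8, 67.9 and 68.2 CPM in EV vehicle and 70.1, 74.2 and 74 CPM in EV T3 libraries. ATAD2 (chromosome 8, 123319850 to 123416350) went from 164, 169.8 and 164 to 142, 136 and 134 CPM, with 192, 179.5 and 189 CPM with vehicle and 178, 176 and 190.2 CPM with T3 in EV cells. The TRB T3 libraries were the lowest in both genes, with log2 fold changes of -0.33 ± 0.06 (edgeR adjusted p = 1.41e-06) and -0.27 ± 0.04 (adjusted p = 2.23e-07). CHAF1A, CHAF1B and UHRF1 had log2 fold changes of 0.10 ± 0.06, -0.10 ± 0.06 and 0.07 ± 0.07.

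Among the G1/S regulators, E2F1 rose, E2F2 and CCNE1 fell, and E2F8 and CCNE2 did not pass the test with T3 in TRB cells. E2F1 (chromosome 20, 33675683 to 33686404), an activator of S phase genes, went from 68.8, 62.4 and 64.8 to 73.9, 75.7 and 71.8 CPM in TRB cells and from 66.2, 65.7 and 65.6 to 73.9, 76 and 74.1 CPM in EV cells. All 6 T3 libraries were above all 6 vehicle libraries. The log2 fold changes were 0.18 ± 0.05 in TRB cells (edgeR adjusted p = 0.00426) and 0.18 ± 0.06 in EV cells (adjusted p = 0.0445), and they differed by -0.004 ± 0.08 (adjusted p = 0.983). The call in EV cells was lost when any 1 of the 6 EV libraries was left out, with adjusted p of 0.0512 to 0.217, and was 0.673 with the libraries thinned to equal depth.

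E2F2 (chromosome 1, 23506430 to 23531220), an activator of the same family, went from 115, 101 and 112 to 91.9, 94.6 and 95.8 CPM in TRB cells, groups that did not overlap (log2 -0.21 ± 0.05, edgeR adjusted p = 0.0002). CCNE1 (chromosome 19, 29811898 to 29824308), a cyclin of S phase entry, went from 32.3, 26.9 and 31 to 27.9, 26.9 and 23.1 CPM, groups that overlapped (log2 -0.20 ± 0.08, adjusted p = 0.039). Its call was lost without TRB vehicle replicate 1 (0.23), TRB vehicle replicate 3 (0.124) or TRB T3 replicate 3 (0.252). DESeq2 (adjusted p = 0.111) and edgeR without a filter (0.0729) did not call CCNE1 either. CCNE2 was at 47.4 ± 4.67 and 46.5 ± 2.63 CPM, and E2F8, a repressor of the family, at 42.8 ± 1.99 and 42.3 ± 1.89 CPM.

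Of the fork protection and repair genes, EXO1 and CLSPN fell with T3 in TRB cells, and TIPIN, RAD51AP1 and BLM did not pass the test. EXO1 (chromosome 1, 241847967 to 241895148), an exonuclease of mismatch repair and end resection, went from 70.1, 72.7 and 67.9 to 58.5, 52.9 and 52.8 CPM, with 70.5, 71.4 and 72.1 CPM with vehicle and 69.2, 64.4 and 71.5 CPM with T3 in EV cells. The TRB T3 libraries were below the other 9 (log2 -0.36 ± 0.06, edgeR adjusted p = 2e-07). CLSPN, which links stalled forks to the checkpoint kinase Chk1, went from 122 ± 6.64 to 99.7 ± 3.98 CPM (log2 -0.29 ± 0.05, adjusted p = 1.01e-06). The other 3 had log2 fold changes of -0.20 ± 0.10 (RAD51AP1), -0.05 ± 0.08 (BLM) and -0.05 ± 0.14 (TIPIN), and TIPIN, with 55 to 158 counts a library, is the least precise of them.

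Promoter sequence gave a view of the members that the choice of names did not use. The windows below are the 250 bases before the RefSeq start of 5 genes on GRCh38.p14, 5′ to 3′ on the gene's strand: the 3 genes that rose with T3 in TRB cells, RFC3, GINS3 and E2F1, and 2 of those that fell, TYMS and PCNA. Capitals mark matches to TTTCCCGC, TTTGGCGC, TTTCGCGC or TTTGCCGC, spellings of the E2F site, on either strand.
RFC3, chr13:33817899-33818148, plus strand: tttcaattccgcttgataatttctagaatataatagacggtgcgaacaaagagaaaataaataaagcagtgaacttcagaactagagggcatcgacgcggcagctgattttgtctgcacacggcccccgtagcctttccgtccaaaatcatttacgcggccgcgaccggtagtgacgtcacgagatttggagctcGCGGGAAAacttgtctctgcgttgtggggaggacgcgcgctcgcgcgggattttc
GINS3, chr16:58392221-58392470, plus strand: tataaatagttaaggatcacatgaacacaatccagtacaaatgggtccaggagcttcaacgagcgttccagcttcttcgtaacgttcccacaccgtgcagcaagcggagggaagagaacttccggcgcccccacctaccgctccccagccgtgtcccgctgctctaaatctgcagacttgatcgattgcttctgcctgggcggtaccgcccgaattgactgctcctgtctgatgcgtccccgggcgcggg
E2F1, chr20:33686386-33686635, minus strand: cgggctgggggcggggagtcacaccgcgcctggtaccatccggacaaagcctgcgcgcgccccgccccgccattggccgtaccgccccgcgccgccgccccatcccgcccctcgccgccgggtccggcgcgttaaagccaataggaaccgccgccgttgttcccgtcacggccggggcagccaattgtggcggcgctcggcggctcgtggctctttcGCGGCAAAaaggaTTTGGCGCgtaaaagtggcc
TYMS, chr18:657403-657652, plus strand: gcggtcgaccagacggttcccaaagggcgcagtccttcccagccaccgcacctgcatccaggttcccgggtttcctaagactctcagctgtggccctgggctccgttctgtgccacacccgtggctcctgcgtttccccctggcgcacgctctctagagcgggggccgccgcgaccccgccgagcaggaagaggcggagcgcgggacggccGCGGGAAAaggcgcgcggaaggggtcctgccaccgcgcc
PCNA, chr20:5126623-5126872, minus strand, 1 of 2 windows of the gene: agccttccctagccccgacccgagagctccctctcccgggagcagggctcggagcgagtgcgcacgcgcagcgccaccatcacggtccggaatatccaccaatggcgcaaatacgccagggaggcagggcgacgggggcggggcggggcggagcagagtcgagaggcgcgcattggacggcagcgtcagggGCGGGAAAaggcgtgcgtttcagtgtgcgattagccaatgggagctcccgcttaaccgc

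The same letters, GCGGGAAA, begin 55 bases before the RefSeq start of RFC3, 39 before that of TYMS and 59 before that of PCNA. A gene that rose and 2 genes that fell thus carry the same match. The annotated RFC3 and TYMS genes begin at 33818049 and 657604, before their windows end at 33818148 and 657652. In these 2 genes the match lies inside the annotated gene, not upstream of it. E2F1 carries 2 matches, beginning 33 and 20 bases before its start, and the GINS3 window carries none of these spellings. That window lies inside the annotated span of GINS3, 58295080 to 58406144, so the annotated gene begins upstream of it. Which start the counted GINS3 reads came from was not tested. Over the members, 46 of 56 had a RefSeq window, 62 windows in all, and 18 of the 62 (29%) held an E2F spelling, against 979 of 35116 windows of all genes (2.79%). By gene, a match stood in 11 of 29 members that fell with T3 in TRB cells, in 2 of 3 that rose and in 4 of 14 that did not pass the test. CCAAT, a common element of cell cycle promoters, stood on either strand in 33 of the 62 windows (53.2%) against 32% of all windows. AGGTCA, the half-site of thyroid hormone response elements, was in 6 of 62 (9.68%) against 12.1% of all. Its direct repeat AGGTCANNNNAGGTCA was in 0 of 62 and in 5 of all 35116 windows (0.0142%). The repeat is so rare that 62 windows cannot show a lack of it. A match describes letters only, and no binding was measured.

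In EV cells, which carry the empty vector, T3 moved few members. By edgeR 2 rose, RFC3 and E2F1, and 0 fell, where 2.84% of all genes tested rose and 1.7% fell. At an unadjusted p below 0.05, 5 were higher and 2 lower by edgeR, where 8.54% of all genes tested were higher and 7.57% lower. DESeq2 called 1 higher and 0 lower, where 1.86% of all genes tested were higher and 0.935% lower. The median log2 fold change of the members was 0.002. The groups did not overlap in 11 members, 8 higher with T3 and 3 lower, while over all genes tested 10.4% were wholly higher and 10.2% wholly lower. The T3 effects of TRB and EV cells come from separate libraries, and across the 56 genes their Pearson r was 0.606, or 0.288 without RFC3 and 0.525 without RFC3 and GINS3, a description over genes that share libraries.

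The T3 effect itself differed between TRB and EV cells in 26 members by the test of the difference, 24 lower and 2 higher in TRB cells, where 11.6% of all genes tested were lower and 12.3% higher. TYMS had the smallest p: its T3 effect in TRB cells minus that in EV cells was -0.53 ± 0.06 on the log2 scale (edgeR adjusted p = 1.18e-11). For GINS3 the effect was higher by 0.78 ± 0.13 (adjusted p = 1.91e-06). TK1 (-0.35 ± 0.07) and SLBP (-0.42 ± 0.08) followed, with adjusted p of 3.24e-05 and 4.47e-05. Of the 24 lower, 15 were kept with any 1 library left out, and 12 were called lower and 1 higher with the libraries thinned to equal depth, where 6.07% of all genes tested were lower and 6.89% higher. Of the 34 members that fell in TRB cells, 23 had a difference that passed the test and 11 had none, among them MCM2, MCM3, POLA1 and ORC1 (-0.14 ± 0.07, -0.14 ± 0.06, -0.13 ± 0.08 and -0.18 ± 0.09 on the log2 scale), and FEN1 (-0.22 ± 0.07, adjusted p = 0.00998) had one without a called fall in TRB cells. The FEN1 call was lost without EV vehicle replicate 3 (adjusted p = 0.102).

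With vehicle, the TRB and EV cells differed in 5 members: MCM5, MCM6, PCNA and SLBP were higher in TRB cells and ATAD2 lower, where 7.86% of all genes tested were higher and 7.4% lower. Among 56 members, 4 higher is near that share and 1 lower is under it, so the counts do not set the members apart. MCM6 (chromosome 2, 135839626 to 135876426) stood at 219, 224 and 198 CPM in TRB vehicle and 185, 182 and 182 CPM in EV vehicle libraries, and at 189, 192 and 184 CPM in TRB T3 and 177, 187 and 190.0 CPM in EV T3 libraries. The vehicle groups did not overlap, and the T3 groups did. MCM5 (chromosome 22, 35400063 to 35425430) showed the same order, at 138, 141 and 136 CPM in TRB vehicle and 120.1, 128 and 120.5 CPM in EV vehicle libraries, then 122, 123 and 118 CPM in TRB T3 and 121, 119 and 125 CPM in EV T3 libraries. The log2 differences with vehicle were 0.23 ± 0.04 for MCM6, 0.17 ± 0.05 for MCM5, 0.17 ± 0.04 for PCNA and 0.18 ± 0.06 for SLBP, with edgeR adjusted p of 0.000111, 0.00826, 0.00167 and 0.037.

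Of these, MCM6 kept its call with any 1 library left out. MCM5 lost it without TRB vehicle replicate 2 (edgeR adjusted p = 0.0614) or EV vehicle replicate 3 (0.0899), PCNA without EV vehicle replicate 2 (0.0576), and SLBP without any 1 vehicle library other than TRB vehicle replicate 3 (0.0592 to 0.294). SLBP was also not called by DESeq2 (adjusted p = 0.135), nor by edgeR without a filter (0.0749) or at equal depth (0.276). ATAD2 was lower in TRB cells with vehicle with a log2 difference of -0.17 ± 0.04 (adjusted p = 0.00412, or 0.188 at equal depth). In all, 12 members were wholly higher and 1 wholly lower in TRB vehicle than in EV vehicle libraries, against 15.3% and 14.8% of all genes tested. The comparison of T3 with vehicle in TRB cells uses the same TRB vehicle libraries, so a high value in them also widens the fall with T3. With T3, MCM5, MCM6 and PCNA differed between TRB and EV cells by -0.01 ± 0.04, 0.03 ± 0.04 and -0.09 ± 0.04 on the log2 scale, none past the test.

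**Figure D4:**
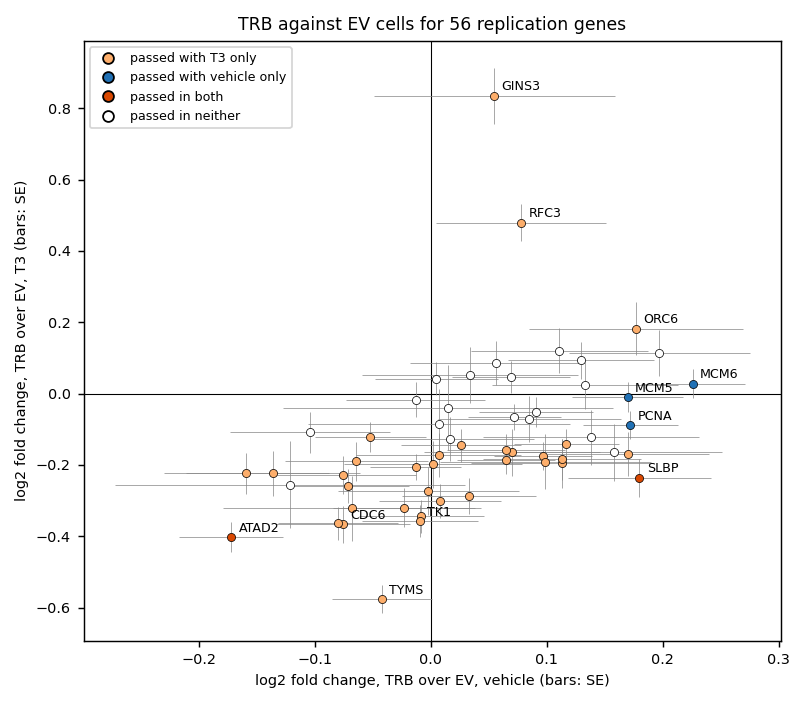
Log2 difference between TRB and EV cells for each of the 56 members with vehicle (horizontal axis) and with T3 (vertical axis, drawn over a wider range), with SE bars and colours for the comparisons in which the member passed the test. Most points lie below 0 on the vertical axis and near 0 on the horizontal axis, with GINS3 and RFC3 above the rest and TYMS lowest.

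With T3 in both, 31 members were lower and 3 higher in TRB than in EV cells by edgeR, where 19.7% of all genes tested were lower and 21% higher. The members wholly lower in TRB T3 libraries numbered 34 and those wholly higher 4, against 23.4% and 24.2% of all genes tested. This comparison shares the TRB T3 libraries with that of T3 against vehicle in TRB cells, and the values of the 2 stand side by side. TYMS was at -0.58 against EV T3 and -0.56 against TRB vehicle libraries on the log2 scale. ATAD2 was at -0.40 and -0.27, CDC6 at -0.37 and -0.30, CDT1 at -0.34 and -0.27, and E2F2 at -0.36 and -0.21, each past the test in both. Altogether 26 of the 34 members that fell with T3 in TRB cells were also lower than in EV T3 libraries. With the libraries thinned to equal depth, 16 members were lower in TRB than in EV cells with T3 and 2 higher, where 11.6% of all genes tested were lower and 12.4% higher.

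The 3 members higher in TRB than EV cells with T3 were GINS3 (log2 0.84 ± 0.08, edgeR adjusted p = 1.06e-14), RFC3 (0.48 ± 0.05, 6.29e-12) and ORC6 (0.18 ± 0.07, 0.0429). ORC6 (chromosome 16, 46689643 to 46698394) stood at 31.5, 30.4 and 34.3 CPM in TRB T3 and 27.4, 31.3 and 26.1 CPM in EV T3 libraries, which overlap. It was at 29.1, 28.8 and 32.5 CPM in TRB vehicle and 26.7, 24.4 and 28.3 CPM in EV vehicle libraries. Its call was lost without EV T3 replicate 1 (0.133), EV T3 replicate 3 (0.273), TRB T3 replicate 1 (0.0681) or TRB T3 replicate 3 (0.259).

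Another 65 genes of replication, not among the 56, were counted for context. In TRB cells 22 of the 65 fell with T3, 3 rose and 40 did not pass the test, with a median log2 fold change of -0.08. Of all genes tested 21.9% fell and 22.4% rose, and of those with a mean of 10 CPM or more 26.1% fell and 25.3% rose. TOP2A, which untangles replicated DNA, TIMELESS, the partner of TIPIN at the fork, and MYBL2, a transcription factor of the cell cycle, had the smallest p among those that fell, with log2 fold changes of -0.38 ± 0.04, -0.43 ± 0.05 and -0.37 ± 0.04 and edgeR adjusted p of 5.66e-14, 5.75e-11 and 5.88e-11. SAMHD1, which degrades deoxynucleotides, rose by 0.76 ± 0.07 on the log2 scale, TFDP2, a partner of E2F proteins, by 0.26 ± 0.05, and CTPS1, which makes CTP, by 0.12 ± 0.04, with adjusted p of 2.55e-14, 9.53e-06 and 0.0134. In EV cells edgeR and DESeq2 each called 0 of the 65 in either direction. Of all genes tested edgeR called 2.84% higher and 1.7% lower, and DESeq2 1.86% and 0.935%. At an unadjusted p below 0.05 edgeR had 4 higher and 3 lower, against 8.54% and 7.57% of all genes tested.

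Genes of mitosis moved beside the replication genes. Of 44 such genes 39 fell and 1 rose with T3 in TRB cells, where 21.9% of all genes tested fell and 22.4% rose, and their median log2 fold change was -0.27. In EV cells 5 fell and 0 rose by edgeR and by DESeq2, where 1.7% and 0.935% of all genes tested fell, and the median was -0.08. At an unadjusted p below 0.05, edgeR had 20 lower and 0 higher in EV cells, where 7.57% of all genes tested were lower and 8.54% higher. The part that a change in the share of dividing cells had in the replication genes' values was not tested. With 1 library left out, 28 to 35 of the 56 replication genes fell and 3 rose with T3 in TRB cells. In those fits 2698 to 2992 of all genes tested fell and 2894 to 3096 rose, out of 14567 to 14924.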

How the data were processed

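RNA libraries, 3 in each of 4 groups, were prepared by the NEBNext Ultra II kit for RNA, per the labels' protocols. For each library the authors deposited counts of reads per gene in whole numbers. The submitters' processing notes name CASAVA 1.7, STAR 2.7, HTSeq 0.10, DESeq2 and the build hg38. Strand counting and annotation are not given in the sources used here. Antisense and overlapping genes are therefore uncertain. A deposited table of normalized values was not used. Lines that name no gene (31.87% to 39.24% of alignments) were left out.

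Counts were tested in R 4.3.3 with edgeR 4.0.16 and limma 3.58.1: filterByExpr (at least 10 counts, 15 in total), TMM factors, and robust quasi-likelihood tests, with the 4 groups fitted together (8 residual degrees of freedom). P-values were adjusted by Benjamini-Hochberg over 14549 genes, with 0.05 as the threshold. CPM are scaled by TMM factors, SD is over 3 libraries, and each SE was taken from the log2 fold change and the test's F. Depth ranged from 4241863 to 11955825 gene counts, and lowest counts per member from 36 to 1394. Coordinates and exon lengths come from GENCODE v29 on hg38, in which 29502 of 56832 gene names were found. Levels per kilobase use the exon length of the gene's coding transcripts. Steps were tested on simulated counts.

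The members and lists were chosen with earlier results of these data known. Members named with values by library, some for TRB cells alone, were chosen by rule. For T3 in TRB cells they were the member with the smallest p and the one with the largest change in each role. Further ones were members called against the main direction, those called in EV cells, and 9 genes whatever their values. The 4 smallest p with vehicle and the 4 for the difference were also named. GINS1, GINS2, RFC4, RFC5 and RRM1 were added after their values were seen, as partners of named genes. Alternatives were DESeq2 1.42.0, RLE factors, no filter, CPM above 1 in 3 libraries, the compared groups alone, a replicate block, each library left out, thinning to 4241863 counts, protein-coding genes only, and offsets for GC content, which was known for 86.5% of the genes tested. No 2 libraries of a group agreed within sampling noise. Of the cell type markers listed, 10 basal, 3 receptor, 6 fibroblast, 6 leukocyte and 5 endothelial genes, the endothelial genes summed to 3.91 to 6.82 CPM, the fibroblast genes to 14.6 to 21.4 CPM and the receptor genes to 82.9 to 152.9 CPM in any library.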

Additional observations from a re-analysis of the deposited data

Results flagged for a closer look

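In 26 members the log2 effect of T3 differed between TRB and EV cells by edgeR's test of the difference (adjusted p below 0.05 over all genes tested); values in brackets are the effect in TRB cells minus that in EV cells. It was higher in TRB cells for GINS3 (0.78) and RFC3 (0.4). It was lower for the ring genes MCM4 (-0.27), MCM5 (-0.18), MCM6 (-0.2) and MCM7 (-0.19) and the licensing factors CDC6 (-0.29) and CDT1 (-0.34). Among helicase activation, clamp and polymerase genes it was lower for GINS1 (-0.34), GINS2 (-0.27), PCNA (-0.26), PRIM1 (-0.32) and POLD1 (-0.32). Strand maturation genes with a lower effect were RPA3 (-0.31), FEN1 (-0.22) and LIG1 (-0.31). All 5 nucleotide supply genes were lower: TYMS (-0.53), RRM1 (-0.26), RRM2 (-0.25), TK1 (-0.35) and DUT (-0.3). The rest were SLBP (-0.42), ATAD2 (-0.23), E2F2 (-0.28), CLSPN (-0.19) and EXO1 (-0.3). Under every alternative tried, 1 of the 2 higher and 10 of the 24 lower were kept; at equal depth the calls of RFC3 (adjusted p = 0.14), RRM2 (0.0947) and DUT (0.592, with a difference of -0.154) ended, as did those of GINS1, GINS2, PRIM1, POLD1, RPA3, FEN1, LIG1, SLBP, CLSPN and EXO1 (0.0549 to 0.536). With 1 library left out, calls were lost for MCM6 without TRB vehicle replicate 2 (0.0753), for GINS1 and FEN1 without EV vehicle replicate 3 (0.0746 and 0.102), for DUT without TRB vehicle replicate 1 (0.0562), and for RPA3 without TRB vehicle replicate 2 (0.133) or EV vehicle replicate 3 (0.0555). MCM5 and CLSPN lost theirs for 6 of the 12 libraries, GINS2 for 8 and PRIM1 for 11, with adjusted p up to 0.124, 0.173, 0.189 and 0.12.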

How the results depend on the processing

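For T3 in TRB cells, the 3 members called higher were called under every alternative, and 22 of the 34 lower were; 26 were kept with any 1 library left out. No result reversed. The members' median there was -0.211 at equal depth and -0.197 to -0.164 with 1 library left out. For T3 in EV cells, 1 member was called higher in place of 2 with DESeq2, without a filter, with a replicate block, at equal depth and with GC offsets, and 1 to 2 with 1 library left out. With vehicle, 2 to 4 members were higher with 1 library left out, the median ran from 0.013 to 0.056, and 0 were lower at equal depth. With T3, 16 members were lower in TRB than EV cells at equal depth in place of 31, and the median was -0.188 to -0.149 with 1 library left out. For the difference of the T3 effects, 1 was higher and 12 lower at equal depth in place of 2 and 24, with a median of -0.24, and -0.207 to -0.172 with 1 library left out. Thinning removes counts, up to the depth of the smallest library, and so precision; beyond that the cause was not tested.

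Same-numbered libraries did not deviate together (r from 0.0462, -0.0259 and 0.177 between TRB vehicle and TRB T3 to -0.139, 0.0407 and -0.208 between EV T3 and TRB T3), so the replicate number was not taken as a pairing. With it as a block, 3 members rose and 33 fell with T3 in TRB cells, 1 rose and 0 fell in EV cells, 4 were higher and 1 lower with vehicle, 3 higher and 31 lower with T3, and 2 higher and 23 lower for the difference. Of all 14549 genes tested, the block fit called 3261 higher and 3176 lower with T3 in TRB cells, and 402 and 245 in EV cells. Between TRB and EV cells it called 1132 and 1063 with vehicle and 3053 and 2845 with T3. For the difference it called 1800 and 1693. The block was not combined with GC offsets, since the numbers do not pair the libraries. The difference of the T3 effects needs all 4 groups and has no fit of the compared groups alone. Members with few counts, such as POLE2 and TIPIN, had SE of 0.13 and 0.14 on the log2 scale for T3 in TRB cells, so changes of the size seen in most members were not detectable in them.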
